A study of Mus musculus with 4 samples.

Results

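Collagens are the chief structural proteins of the extracellular matrix, and 10 collagen chain genes of mouse liver are described here across adult life, from 4 to 21 months of age. The genes are Col1a1, Col1a2, Col3a1, Col5a1 and Col5a2, whose chains build fibrils, Col4a1 and Col4a2, whose chains build the sheet-like network of basement membranes, Col18a1, which lies at basement membranes, Col6a3, which forms beaded microfilaments, and Col14a1, which sits on the surface of fibrils. They were taken by name, as every probe set annotated to a single one of these symbols, and make up 10 of 18193 genes and 21 of 34945 probe sets with 1 gene symbol. All mice were males of the inbred strain C57BL/6J fed a low-fat diet without restriction, and the labels name no transgene or other treatment. The labels set the groups apart by age alone, 4, 8, 13 or 21 months. At each age total RNA from the livers of 6 mice was pooled and hybridised to 1 short-oligonucleotide array, so each group is 1 pooled sample.

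Because there was 1 array per age, no difference between ages could be tested, the spread between mice is not known, and no value below has a replicate error. Every value is a log2 expression level, or a difference of log2 levels in which 1 stands for a 2-fold difference. A difference of at least 1.5-fold, which is 0.585 on this scale, was counted, and the share of all probe sets past the same limit is given beside each count. The pairs of ages share arrays, so that an accident of 1 pool enters several of them. Levels of different probe sets depend on their own probes, and the genes are therefore not ranked by level.

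A collagen molecule is a triple helix of chains that are hydroxylated and folded in the endoplasmic reticulum, secreted, trimmed and then crosslinked outside the cell. In the liver, type I and type III collagen lie mainly around portal tracts, central veins and, as thin reticular fibres, along the sinusoids, while the sinusoids have only a sparse, discontinuous basement membrane. Hepatic stellate cells and portal fibroblasts are the main makers of fibrillar collagen, and scarring of the liver is a build-up of these fibrils. In whole-liver RNA fewer cells of a type and less RNA per cell cannot be told apart.

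The start regions of 4 of the genes are shown first because the results turn on which chains had like profiles. Promoter sequence from RefSeq on the build GRCm38.p6 was found for 7 of the 10 genes, and the last 250 bases before the annotated start were searched on both strands for 3 short motifs. The motif TATAAA was present in 12.4% of 32851 mouse promoter windows of the same length. The motif CCAAT was present in 33.8% of them, and the motif GGGCGG in 32.7%. Col1a2 and Col3a1, which shared the same order of ages, have these windows on the plus strand at chr6:4505368-4505617 and chr1:45311288-45311537, printed 5′ to 3′ with motif matches in capitals.
Col1a2: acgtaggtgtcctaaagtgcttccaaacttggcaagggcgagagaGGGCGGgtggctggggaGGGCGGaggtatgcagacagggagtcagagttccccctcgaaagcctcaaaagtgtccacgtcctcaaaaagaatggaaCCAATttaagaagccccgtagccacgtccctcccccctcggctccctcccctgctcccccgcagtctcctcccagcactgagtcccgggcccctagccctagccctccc
Col3a1: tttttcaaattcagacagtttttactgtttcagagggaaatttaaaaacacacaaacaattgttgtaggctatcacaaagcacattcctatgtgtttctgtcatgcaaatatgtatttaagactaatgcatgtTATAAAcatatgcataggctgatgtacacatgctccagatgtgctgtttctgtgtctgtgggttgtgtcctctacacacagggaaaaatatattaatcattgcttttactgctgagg
The Col1a2 window holds CCAAT once, at bases -109 to -105 from the start, and GGGCGG in 2 places, and 62.0% of its bases are G or C. The Col3a1 window holds neither of these, has TATAAA at bases -117 to -112 and is 35.2% G and C. A match is a run of letters and does not show that a factor binds there.

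Col4a1 and Col4a2 lie head to head on chromosome 8 and are read in opposite directions. Their annotated first bases are 11312826 for Col4a1, on the minus strand, and 11312805 for Col4a2, on the plus strand, so that the annotated transcripts overlap by 22 bases, on opposite strands. That overlap, chr8:11312805-11312826 on the plus strand, is shown because both chains of the type IV molecule start in it, and its capitals mark GGGCGG.
Col4a1 and Col4a2: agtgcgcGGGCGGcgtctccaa
The Col4a2 window of 250 bases before the start has CCAAT once and GGGCGG in 2 places, and the Col4a1 window has CCAAT once and no GGGCGG.

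The level of each probe set set the limits of what could be read. A filter at 3.74, the median of the mean levels of all 45101 probe sets, was passed by 13 of the 21 collagen probe sets and by 9 of the 10 genes. Col4a1, Col5a1, Col14a1 and Col18a1 had 2 probe sets above it and the other 5 genes had 1. Col1a1, which encodes the more abundant chain of type I collagen, did not pass with either of its probe sets. Its probe set 1423669_at read 3.75, 3.65, 3.55 and 3.32 at 4, 8, 13 and 21 months, and 1455494_at read 3.24, 3.28, 3.33 and 3.30. Levels of this size cannot be told from background here, and the downward order of 1423669_at was not shared by 1455494_at. For type I collagen the readable chain was thus Col1a2.

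**Figure D1:**
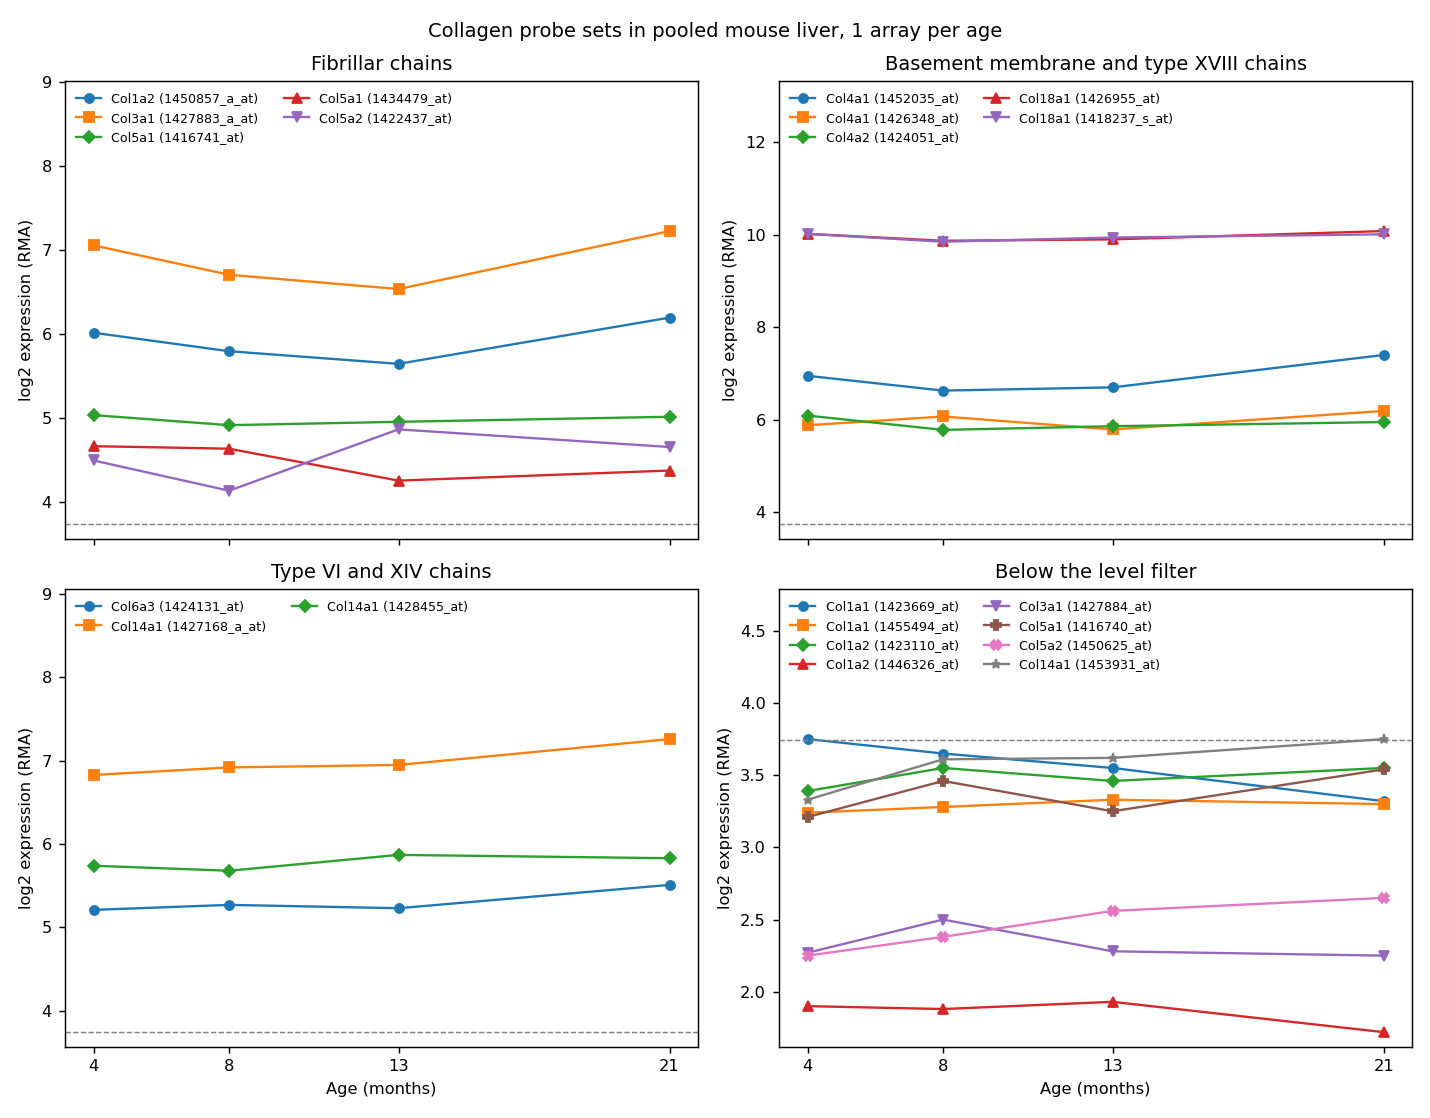
Log2 expression (y axis) of all 21 collagen probe sets against age in months (x axis), with 1 pooled array per point and the level filter of 3.74 as a dashed line. Col3a1 and Col1a2 dip to 13 months and are highest at 21 months, while the Col18a1 probe sets stay between 9.85 and 10.08 and both Col1a1 probe sets lie at the filter or below it.

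The fibrillar chains Col3a1 and Col1a2 had the same shape over the 4 ages, lower at 8 months than at 4, lowest at 13 months and highest at 21 months. Col3a1, whose chains form type III collagen, read 7.06, 6.71, 6.54 and 7.23 at 4, 8, 13 and 21 months (1427883_a_at). Col1a2 read 6.02, 5.80, 5.65 and 6.20 at the same ages (1450857_a_at). For both genes the pools at 4 and 21 months stood above those at 8 and 13 months.

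Col3a1 stood at 7.23 at 21 months against 6.54 at 13 months, a difference of 0.69 or 1.61-fold. Differences at least this high were found in 0.785% of the 19481 probe sets above the filter. For Col1a2 the same step was 0.55, or 1.46-fold, which 1.6% of probe sets equalled or exceeded. The 13-month pool was the low point of both. At 13 against 4 months Col3a1 differed by -0.52, a value that 0.826% of probe sets reached, and Col1a2 by -0.37, which 2.60% reached. Over the whole span from 4 to 21 months the differences were 0.17 for Col3a1 and 0.18 for Col1a2, each 1.13-fold, and 17.8% and 16.5% of all probe sets were as high.

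Likeness of shape was measured as the Euclidean distance between profiles over the 4 ages after each was set to its own mean. Col1a2 lay 0.136 from Col3a1, and among all other probe sets 0.0821% were as near to Col3a1 and 0.39% as near to Col1a2. For the other collagen probe sets and their own nearest collagen, the share ran from 0.806% (Col18a1 with 1418237_s_at) to 40.9% (Col5a1 with 1434479_at). The pair was picked out from these same values, so its shares describe it and test nothing. The sequence 4, 8, 13 months in falling order with 21 months above 4 months was seen in these 2 of 13 collagen probe sets and in 4.20% of all probe sets. The sequence describes these 2 profiles, so that share is no test of them either. The remaining probe sets of the same genes, 1427884_at for Col3a1 and 1423110_at and 1446326_at for Col1a2, lay between 1.72 and 3.55 at every age, below the filter, and did not repeat the shape.

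The type V chains, which start fibrils and limit their width, did not follow Col3a1 and Col1a2. Col5a2 read 4.50, 4.14, 4.87 and 4.66 at 4, 8, 13 and 21 months (1422437_at), with the lowest pool at 8 months and the highest at 13 months. At 13 against 8 months it stood at 4.87 against 4.14, a difference of 0.73 or 1.66-fold, and 0.277% of all probe sets were as high at this step. Its other probe set, 1450625_at, read 2.25, 2.38, 2.56 and 2.65, below the filter throughout. Col5a2 and Col3a1 neighbour each other on chromosome 1 with 0 protein-coding genes between them in the gene table, and at 13 against 8 months they differed by 0.73 and -0.17.

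Col5a1 had 2 readable probe sets that disagreed in size. With 1416741_at it read 5.04, 4.92, 4.96 and 5.02 at 4, 8, 13 and 21 months, a range of 0.12 that 83.9% of all probe sets equalled or exceeded. With 1434479_at it read 4.67, 4.64, 4.26 and 4.38, so the 13-month and 21-month pools were the lower ones, with -0.38 at 13 against 8 months and -0.29 at 21 against 4 months. The third probe set, 1416740_at, read 3.21, 3.46, 3.25 and 3.54, below the filter. The 2 readable probe sets were both lower at 8 vs 4, 13 vs 4 and 21 vs 4 months, and both higher at 21 vs 13 months. They differed in sign at 13 vs 8 months, at 0.04 and -0.38, and at 21 vs 8 months, at 0.10 and -0.26.

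Among the basement membrane chains Col4a1 was highest at 21 months with both of its probe sets. It read 6.95, 6.63, 6.70 and 7.40 at 4, 8, 13 and 21 months with 1452035_at. It read 5.88, 6.07, 5.79 and 6.19 with 1426348_at. The 21-month pool was thus above each younger pool with either probe set, while the order of the 3 younger pools differed between the probe sets.

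At 21 months Col4a1 stood at 7.40 against 6.70 at 13 months with 1452035_at, a difference of 0.70 or 1.62-fold that 0.744% of all probe sets reached, and 1426348_at differed by 0.40. At 21 against 4 months the differences were 0.45 and 0.31, or 1.37-fold and 1.24-fold, which 3.05% and 6.80% of all probe sets reached. At 21 against 8 months they were 0.77 and 0.12. The gap of 0.65 between these last values was wide, since over 4795 genes with at least 2 readable probe sets the median gap at that pair of ages was 0.18 and 90% of gaps were at or below 0.46. At 8 against 4 months the probe sets of Col4a1 even differed in sign, at -0.32 and 0.19.

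Col4a2, the partner chain of Col4a1 in the type IV molecule, read 6.09, 5.78, 5.86 and 5.95 at 4, 8, 13 and 21 months (1424051_at). Its 4-month pool was the highest and its 8-month pool the lowest. At 8 against 4 months Col4a2 differed by -0.31, close to the -0.32 of Col4a1 with 1452035_at. At 21 against 13 months it differed by 0.09, against 0.70 and 0.40 for Col4a1, and at 21 against 4 months by -0.14, against 0.45 and 0.31. At 8 against 4 months Col4a2 thus read like 1 of the Col4a1 probe sets and unlike the other, which differed by 0.19. At 21 months it stood apart from both. The part of the shared start region in these values was not tested. Whether the gap between the chains exceeds the spread between mice was not testable.

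Col18a1, whose product carries the endostatin fragment at its end, varied little. It read 10.02, 9.87, 9.90 and 10.08 at 4, 8, 13 and 21 months with 1426955_at, and 10.02, 9.85, 9.94 and 10.01 with 1418237_s_at. Both probe sets had the 8-month pool lowest, by -0.15 and -0.17 against 4 months, and ranges of 0.21 and 0.17 over the ages, below the median range of 0.22 over all probe sets. An _s_at probe set may match transcripts of more than a single gene, but here it followed the other within 0.11 at every pair of ages.

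The chains outside fibrils and basement membranes had small differences toward 21 months. Col6a3, a chain of type VI collagen, read 5.21, 5.27, 5.23 and 5.51 at 4, 8, 13 and 21 months (1424131_at). The 3 younger pools lay within 0.06 of each other and the 21-month pool stood apart above them, by 0.30 or 1.23-fold against 4 months. Col14a1, a chain of type XIV collagen, read 6.83, 6.92, 6.95 and 7.26 with 1427168_a_at, the only readable collagen probe set that was higher at every step, an order shown by 4.16% of all probe sets. Most of this lay in the last step, 0.31 at 21 against 13 months, and the whole span came to 0.43 or 1.35-fold, which 3.38% of all probe sets reached. The probe set 1428455_at of the same gene read 5.74, 5.68, 5.87 and 5.83, with 0.09 at 21 against 4 months. The third, 1453931_at, read 3.33, 3.61, 3.62 and 3.75, with a mean below the filter, and was also highest at 21 months. The profiles of Col6a3 and of Col14a1 with 1427168_a_at were each other's nearest among the collagens, 0.104 apart.

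**Figure D2:**
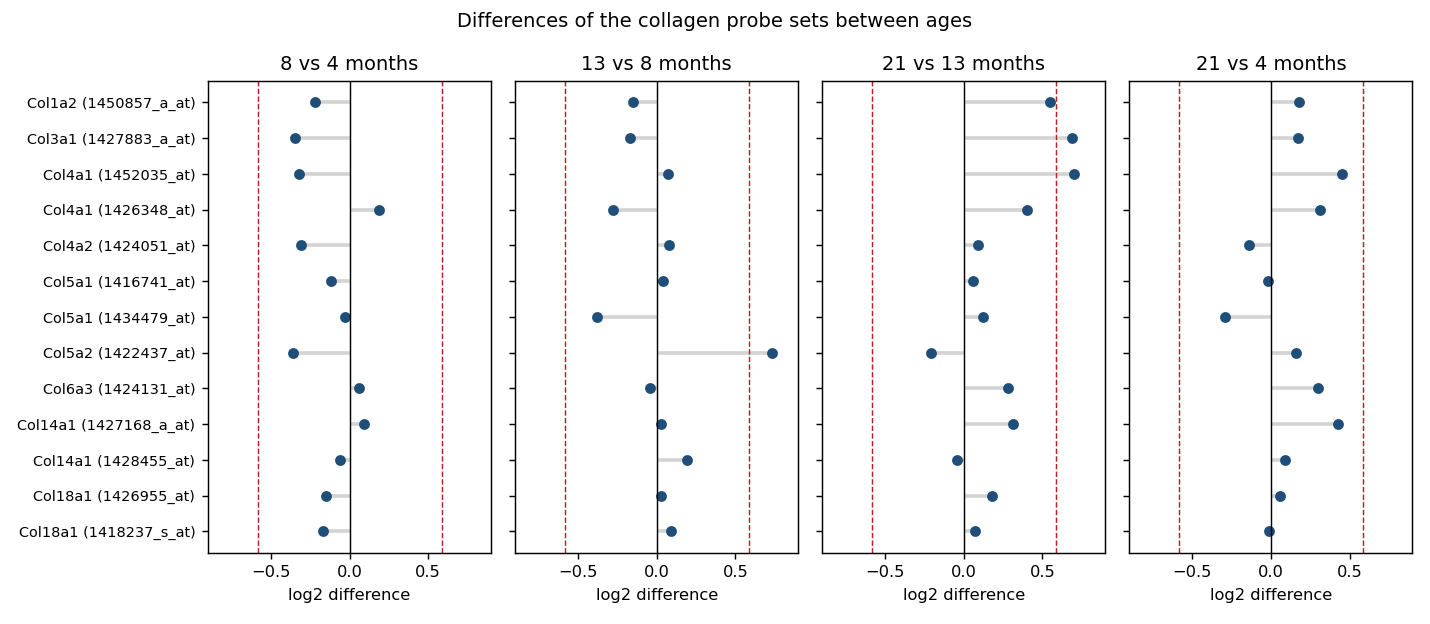
Log2 differences (x axis) of the 13 collagen probe sets above the filter (rows) for 4 pairs of ages, with dashed lines at 1.5-fold in either direction and 1 pooled array per age. Col3a1 and a Col4a1 probe set pass the line at 21 vs 13 months and Col5a2 at 13 vs 8 months, and none passes it at 8 vs 4 or 21 vs 4 months.

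Counted together, few of the 13 probe sets passed 1.5-fold. At 21 vs 13 months 2 were higher (Col3a1 and Col4a1 with 1452035_at) and 0 lower, where 1.26% of all probe sets were higher and 0.493% lower. At 13 vs 8 months 1 was higher (Col5a2) and 0 lower, against 0.585% and 0.339% of all. At 21 vs 8 months 1 was higher (Col4a1 with 1452035_at) and 0 lower, against 2.21% and 0.657%. At 8 vs 4 months 0 passed in either direction, where 0.472% of all probe sets were higher and 0.406% lower. At 13 vs 4 months 0 passed, where 0.775% were higher and 0.549% lower, and at 21 vs 4 months 0 passed, where 1.69% were higher and 0.457% lower. With 13 probe sets, counts of 0 to 2 give no share that could be set against these percentages.

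The direction of the differences varied with the pair of ages. At 8 vs 4 months 10 of 13 collagen probe sets were lower, with a median of -0.15, where 49.7% of all probe sets were lower and their median was 0.00. At 13 vs 8 months 8 were higher and 5 lower, with a median of 0.03, beside 49.7% higher and a median of 0.00 over all probe sets. At 13 vs 4 months 4 were higher and 9 lower, with a median of -0.09, beside 49.6% higher and 0.00 over all. At 21 vs 13 months 11 of 13 were higher with a median of 0.18, beside 50.5% and 0.01 over all probe sets. At 21 vs 8 months 12 of 13 were higher with a median of 0.21, beside 51.4% and 0.01. At 21 vs 4 months 9 of 13 were higher with a median of 0.16, beside 50.1% and 0.01. With 1 probe set per gene the medians over the 9 genes were -0.22 at 8 vs 4, 0.03 at 13 vs 8, 0.28 at 21 vs 13 and 0.17 at 21 vs 4 months. The first of these was -0.04 when all probe sets of each gene were averaged, those below the filter included. The average of Col5a2 then lay below the filter, so that gene was left out of the -0.04.

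The 21-month pool was the highest for 7 of the 13 probe sets and the lowest for 0, while 29.2% and 25% of all probe sets had their highest and lowest value there. The 8-month pool was the lowest for 7 and the highest for 0, beside 28.0% and 24.3% of all. The 7 probe sets highest at 21 months were those of Col1a2, Col3a1, Col6a3, both of Col4a1, and 1 each of Col14a1 and Col18a1. Probe sets of a gene share their RNA and are not independent. The median range over the 4 ages was 0.40 for the collagen probe sets and 0.22 for all.

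**Figure D3:**
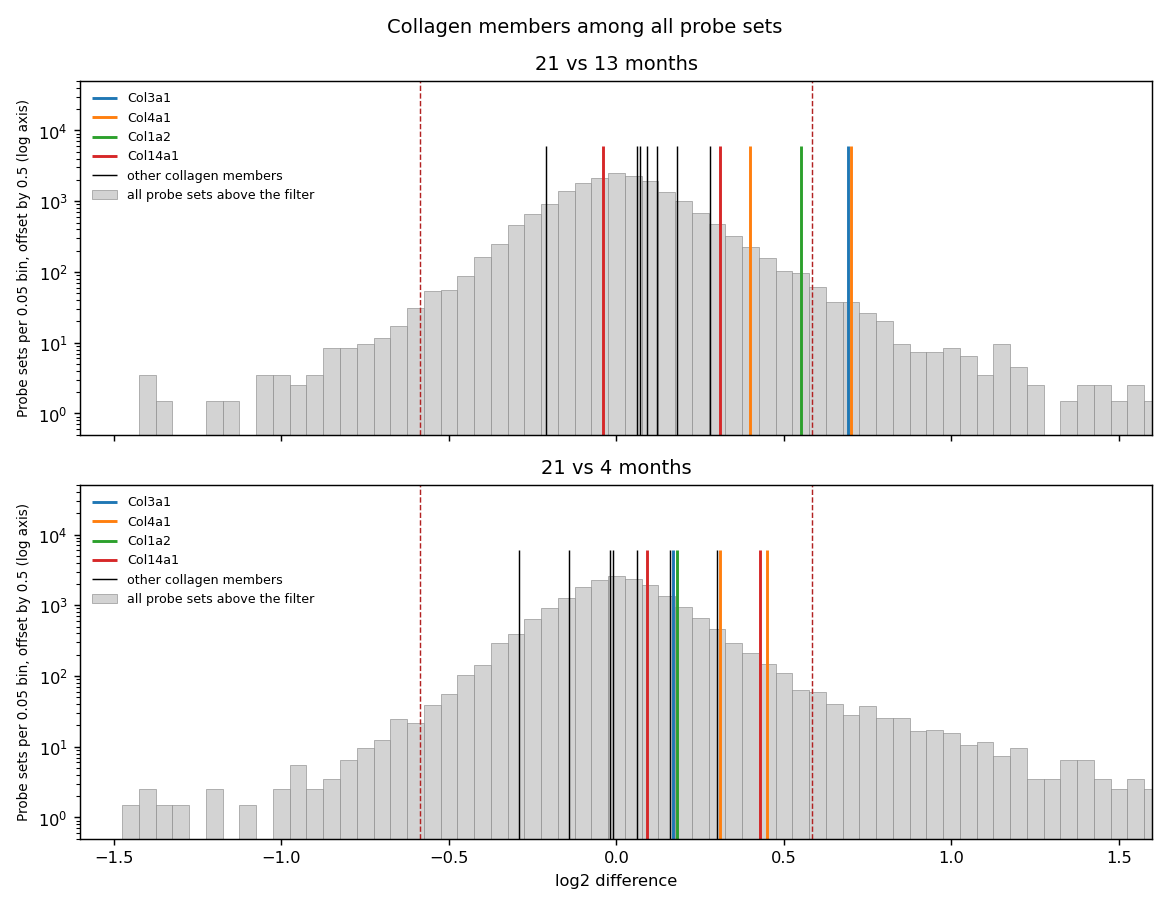
Number of probe sets above the filter (y axis, log scale, bars offset by 0.5) by log2 difference in bins of 0.05 (x axis) for 21 vs 13 and 21 vs 4 months, with collagen probe sets as vertical lines and dashed lines at 1.5-fold. Col3a1 at 0.69 and Col4a1 at 0.70 lie in the upper tail at 21 vs 13 months, and at 21 vs 4 months Col3a1 lies at 0.17.

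The related genes are described with 1 probe set per gene, the one with the highest mean. Of all 11582 genes above the filter, 0.501% were at least 1.5-fold higher and 0.354% lower at 8 vs 4 months. The shares were 0.717% and 0.363% at 13 vs 8, 1.47% and 0.458% at 21 vs 13, and 2.1% and 0.423% at 21 vs 4 months. At 13 vs 4 months they were 0.838% and 0.458%, and at 21 vs 8 months 2.66% and 0.699%.

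By count most of the remaining collagen chains were lower at 21 than at 4 months, but several of them lay close to the filter. Of 34 other collagen genes 32 had a probe set and 17 passed the filter, and 0 of the 17 passed 1.5-fold at any pair of ages. At 21 vs 4 months 4 were higher and 13 lower with a median of -0.11, beside 0.01 for all genes above the filter. Of all probe sets 46.5% were lower at this pair. Among the 13, Col10a1 and Col9a3 were close to the filter at 21 months, at 3.84 and 3.80, and Col20a1 differed by only -0.01. Among the 4, Col7a1 was also close to it, at 3.84 at 4 months. At 21 vs 13 months 9 were higher and 7 lower with a median of 0.01. Col6a1, which pairs with Col6a3 in type VI collagen, read 4.84, 4.78, 4.84 and 5.14 at 4, 8, 13 and 21 months, 0.30 higher at 21 than at 4 months, the same size as Col6a3. Col27a1, a fibrillar chain of cartilage, read 6.82, 6.97, 6.94 and 6.45, the lowest at 21 months. Col4a6, a type IV chain outside the usual pair, differed by -0.32 and Col10a1 by -0.35 at 21 vs 4 months.

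Genes that fold and modify collagen chains in the cell had a median of -0.01 at 21 vs 4 months over 13 of 20 listed genes above the filter, with 1 at least 1.5-fold higher and 1 lower, where 2.1% of all genes were higher and 0.423% lower. Neither gene passed when all its probe sets were averaged, which for Fkbp14 takes in a probe set below the filter. P4ha1, the catalytic subunit of a collagen prolyl hydroxylase, read 6.06, 5.38, 5.22 and 5.40 at 4, 8, 13 and 21 months (1452094_at), so the 4-month pool stood above the others, and the difference at 13 vs 4 months was -0.84. A second probe set of P4ha1, 1426519_at, read 4.49, 4.54, 4.16 and 4.24 and lacked the step at 8 months. Fkbp14, a folding enzyme of the endoplasmic reticulum, read 4.21, 4.79, 4.54 and 4.84 and differed by 0.63 at 21 vs 4 months. P3h1, another prolyl hydroxylase, differed by 0.20 with 1452752_at, while 1421462_a_at read 4.63 at 4 and 5.04 at 21 months.

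Among 7 of 13 listed genes for trimming and crosslinking procollagen, 0 passed 1.5-fold at any pair of ages, and the median at 21 vs 4 months was 0.12. Pcolce, which speeds removal of the carboxy-terminal propeptide of fibrillar collagens, read 5.33, 4.83, 4.97 and 5.39 at 4, 8, 13 and 21 months (1437165_a_at), low in the middle ages as Col3a1 was. Its second probe set, 1448433_a_at, read 4.95, 4.83, 4.8 and 4.88. Tgm2, a crosslinking transglutaminase, differed by 0.43 at 21 vs 4 months, and Loxl1 of the lysyl oxidase family by 0.29 with 1451978_at. A second Loxl1 probe set, 1436063_at, read 3.58 at 4 and 3.62 at 21 months. Loxl3 differed by 0.13.

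Partners of the basement membrane had a median of -0.03 at 21 vs 4 months, over 11 of 17 listed genes, with 3 higher and 7 lower and 0 past 1.5-fold at any pair. Sparc, a collagen-binding glycoprotein, read 7.06, 7.05, 6.97 and 7.39 at 4, 8, 13 and 21 months, highest at 21 months like Col4a1. Its probe set 1448392_at was also highest at 21 months, at 6.47, while 1458204_at read 5.33, 5.50, 5.49 and 5.48. The laminin chains Lama3 and Lama5 differed by -0.36 and -0.28 at 21 vs 4 months. Partners of fibrils and other matrix proteins had a median of 0.19 over 14 of 20 genes at this pair, 11 higher and 3 lower, and 0 passed 1.5-fold. Dcn, which encodes decorin, a small proteoglycan on fibrils, read 9.72, 9.70, 9.88 and 10.16, and Tnxb, a tenascin, read 4.87, 4.84, 4.97 and 5.30. Fbln2, a fibulin, differed by 0.38.

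Genes for breaking collagen down showed no common direction. Over 9 of 18 listed proteases, uptake receptors and inhibitors the median at 21 vs 4 months was 0.05, and at 21 vs 8 months 1 was at least 1.5-fold higher and 1 lower, where 2.66% and 0.699% of all genes were. Mmp14, a membrane-bound collagenase, read 6.48, 6.13, 6.42 and 6.76 at 4, 8, 13 and 21 months. Its probe set 1416572_at was also highest at 21 months, at 5.42, while 1440920_at was lowest there, at 4.50. Mrc2, a receptor that takes up collagen fragments, read 3.83, 4.05, 3.89 and 3.42, close to the filter. Mmp2, a gelatinase, differed by -0.31 at 21 vs 4 months with 1416136_at, while 1439364_a_at read 4.44 at 4 and 4.45 at 21 months. Both Mmp14 and Mrc2 at 21 vs 8 months were no longer counted when the arrays were quantile normalized. With a gene's probe sets averaged, Mmp14 fell short of 1.5-fold. The average of Mrc2 takes in a probe set below the filter and itself lay below it, so that gene was left out.

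Collagen receptors had a median of -0.07 at 21 vs 4 months over 8 of 12 genes, and 2 were at least 1.5-fold higher, where 2.1% of all genes were. With all probe sets averaged, those below the filter included, 1 was, and Lair1 was left out because its average lay below the filter. Cd44, a hyaluronan receptor that also binds collagen and is abundant on leukocytes, read 6.51, 6.27, 6.49 and 7.35 at 4, 8, 13 and 21 months. Lair1, an inhibitory collagen receptor of leukocytes, read 3.61, 4.05, 4.18 and 4.26. Ddr2, a collagen receptor kinase of mesenchymal cells, differed by -0.34. Of 19 fibrogenic signalling genes 15 passed the filter, with a median of 0.09 and 1 gene at least 1.5-fold higher, where 2.1% of all genes were. This was Tgfbi, which is induced by TGF-beta, differed by 0.64 and did not pass when its probe sets, all above the filter, were averaged. Tgfb1 itself differed by 0.36 and Il13ra2 by -0.32. Ccn2, also known as connective tissue growth factor, read 6.75, 6.56, 7.39 and 6.84, highest at 13 months, the age at which Col3a1 and Col1a2 were lowest and Col5a2 highest.

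**Figure D4:**
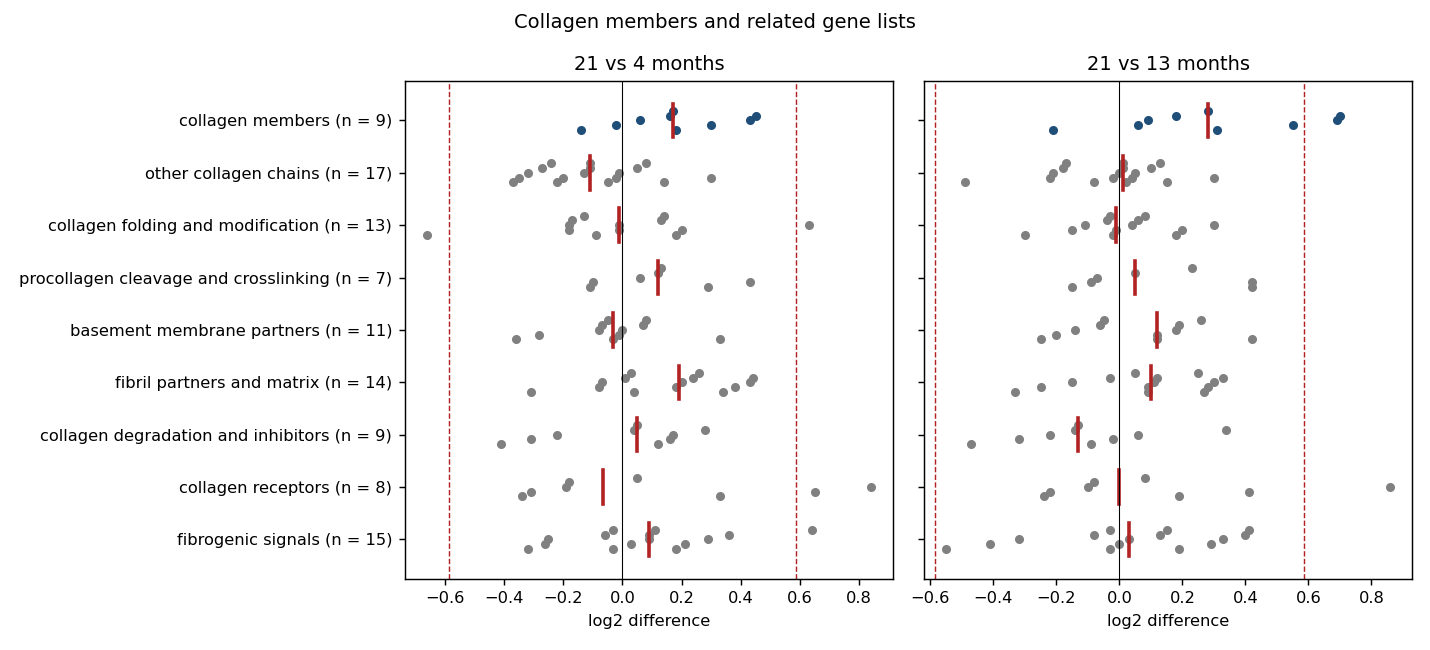
Log2 differences (x axis) at 21 vs 4 and 21 vs 13 months of collagen members and 8 related gene lists (rows), 1 point per gene above the filter, with red bars at list medians and dashed lines at 1.5-fold. The members' medians are 0.17 and 0.28, against -0.11 and 0.01 for the other collagen chains, several of which lay close to the filter.

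The tissue label was checked on hepatocyte markers, of which 13 of 14 were measured and all 13 passed the filter. Alb, which encodes albumin, read 13.49, 13.43, 13.49 and 13.48 at 4, 8, 13 and 21 months. Tat, an enzyme of tyrosine breakdown, read 11.47, 10.81, 11.07 and 11.12, and was the 1 hepatocyte marker at least 1.5-fold lower at 8 vs 4 months, where 0.354% of all genes were. At the same pair Ass1, an enzyme of the urea cycle, differed by -0.50. At 21 vs 4 months Fgb, a fibrinogen chain, differed by 0.37 and Apob by -0.26. Of the cells known to make collagen, stellate cells were followed with 14 of 15 markers, all above the filter, with a median of 0.04 at 21 vs 4 months. Their summed level on the linear scale was 1570, 1560, 1520 and 1590 at 4, 8, 13 and 21 months. Most of this sum comes from Ecm1, Reln and Rgs5, at 8.66, 8.47 and 8.38 at 4 months, so it says little of the dimmer markers. Lrat, which stores vitamin A in stellate cells, read 5.97, 6.29, 6.27 and 6.01, and Pdgfrb read 4.71, 4.50, 4.71 and 5. A second Pdgfrb probe set, 1417148_at, read 4.10, 4.23, 4.17 and 4.20. Cygb was the stellate marker with the largest difference at 21 vs 4 months, 0.41, followed by Hgf with 0.34 (1425379_at). The other Hgf probe sets read 4.55 and 4.73 (1442884_at) and 4.72 and 4.75 (1451866_a_at) at 4 and 21 months. Gfap read 4.70, 5.29, 4.91 and 4.74, and was the 1 stellate marker at least 1.5-fold higher at 8 vs 4 months, where 0.501% of all genes were. It did not pass after median centring or cyclic loess.

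Markers of myofibroblasts and portal fibroblasts stood out at 8 months, not at 21 months. With 9 of 14 above the filter, their summed level was 237, 304, 239 and 248 at 4, 8, 13 and 21 months, and 8 of 9 were higher at 8 vs 4 months, with 1 past 1.5-fold where 0.501% of all genes were. Myl9, Mfap4, Pi16 and Thy1 were close to the filter at 4 months, at 3.82, 3.90, 4.02 and 4.07. Acta2, the smooth muscle actin of myofibroblasts and of vessel walls, read 5.72, 6.36, 5.69 and 5.92, and Tagln read 5.01, 5.48, 5 and 5.29. Of the 13 collagen probe sets 3 were higher at 8 vs 4 months, as Acta2 and Tagln were, namely Col6a3, Col14a1 with 1427168_a_at and Col4a1 with 1426348_at, and 10 were lower. Of all probe sets 46.7% were higher and 49.7% lower at this pair. The part of these cells in the collagen values was not tested. Acta2 was left out when all its probe sets were averaged, since the average takes in 2 below the filter and itself lay below it. Its readable probe set differed by 0.64.

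Sinusoidal endothelial markers, with 15 of 15 above the filter, summed to 2480, 2380, 2370 and 2500 at 4, 8, 13 and 21 months. Lyve1, a hyaluronan receptor of these cells, read 6.81, 5.89, 6.36 and 6.66, lowest at 8 months, and Stab2 read 7.80, 7.63, 7.54 and 7.93. Macrophage markers, with 14 of 14 above the filter, summed to 3470, 2610, 3670 and 5960. All 14 were lower at 8 vs 4 months and all 14 higher at 21 vs 4 months, 10 of them at least 1.5-fold, where 2.1% of all genes were. Of the 13 collagen probe sets 6 had these directions at both pairs, namely those of Col1a2, Col3a1 and Col5a2, Col4a1 with 1452035_at, Col14a1 with 1428455_at and Col18a1 with 1426955_at. Another 3 were higher at both pairs and 4 were lower at both. Of all probe sets 49.7% were lower at 8 vs 4 months and 50.1% were higher at 21 vs 4 months. The share of all probe sets with both directions was not computed, so no excess can be read from the 6. At 13 vs 8 months all 14 macrophage markers were higher, with a median of 0.45. Of the 13 collagen probe sets 8 were higher and 5 lower at this pair, beside 49.7% and 46.5% of all probe sets. The part of macrophages in the collagen values was not tested. Of 10 bile duct markers 2 passed the filter, too few to describe.

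**Figure D5:**
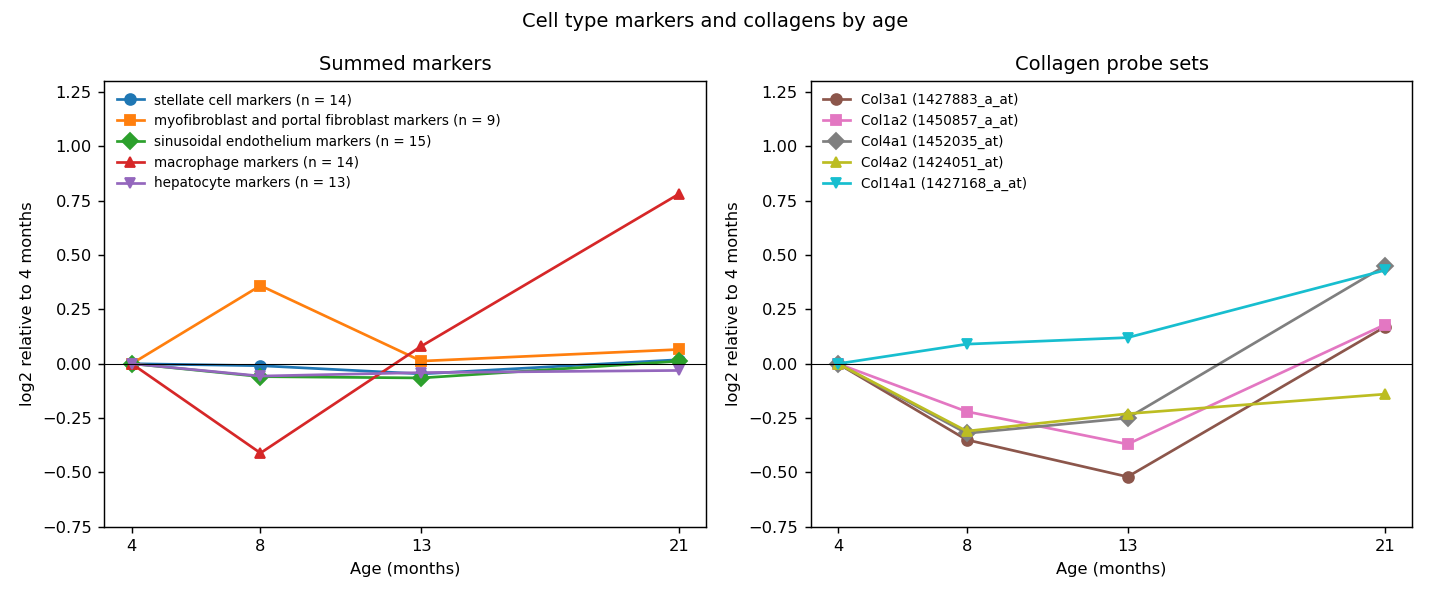
Log2 level relative to 4 months (y axis) against age in months (x axis) for the summed markers of 5 cell types (left) and for 5 collagen probe sets (right), 1 pooled array per age. Stellate and endothelial sums stay near 0, macrophage sums are highest at 21 months, and Col3a1, Col1a2 and Col4a1 are lowest at 8 or 13 months and highest at 21 months.

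Genes with the most similar profile were looked up among the other genes above the filter. Nearest to the mean profile of Col1a1, Col1a2, Col3a1, Col5a1 and Col5a2 over the 4 ages were Gle1, Megf9, Fam172a, Dab2 and Rbm15b, at Euclidean distances of 0.0091 to 0.0210. That mean profile spans only 0.24, from -0.14 at 8 months to 0.11 at 21 months around its own mean, and it includes Col1a1, which lay below the filter. Nearest to the mean of Col4a1 and Col4a2 were Cttnbp2nl, B230307C23Rik, Tab2, Lrif1 and Was, at distances of 0.0255 to 0.0568.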

How the data were processed

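Liver RNA pooled from 6 mice per age was measured on 1 array at each of 4 ages. The deposited values are log2 levels of 45101 probe sets, from 1.22 to 13.7, made with RMA per the submitters' processing notes. Its version and the arrays it took in together are not given here. RMA makes the arrays' distributions alike and narrows differences at low levels. Names came from the platform annotation: 34945 probe sets had 1 symbol, 932 several, 9160 none and 64 were controls, and a GRCm38.p6 gene table changed 0 symbols. Probe sets with 1 symbol and a mean at or above 3.74 were counted, 19481 of 11582 genes. A marker list's summed level adds its genes' values off the log scale, so its brightest genes weigh most. The number of arrays limits the precision, and no test was possible.

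The members and lists were chosen with earlier results of these data known. The rule named all collagen probe sets and, in each list, the 3 largest differences at 21 vs 4 months, the 2 largest at other pairs and every gene past 1.5-fold; several of these, macrophage markers among them, are given only within counts or not named. Alb and Lrat are shown beside them. So are further probe sets of P4ha1, P3h1, Pcolce, Loxl1, Sparc, Mmp14, Mmp2, Lair1, Hgf and Pdgfrb. Further probe sets of the other list genes are not shown. Ties for the highest or lowest age went to the younger. Alternatives were 3 normalizations between arrays (limma), other filters and fold limits, and averaging a gene's probe sets. Counting was run on simulated levels with effects set past or short of the limit. That run checks the counting only and says nothing of the spread between mice. Tools were R 4.3.3 with limma 3.58.1, and Python 3.11.15 with pandas 2.3.3, numpy 2.4.6 and matplotlib 3.10.9.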

Additional observations from a re-analysis of the deposited data

How the results depend on the processing

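Under median centring, quantile normalization and cyclic loess the collagen differences shifted by at most 0.0812, and the members' counts past 1.5-fold were the same. With a lower limit of 0.322 on the log2 scale, 2 collagen probe sets were lower at 8 vs 4 months, where 3.68% of all probe sets were. At 13 vs 8 months 1 was higher and 1 lower, beside 4.02% and 3.22% of all. At 21 vs 13 months 4 were higher, beside 5.97%, and at 21 vs 4 months 2 were, beside 5.99%. At 13 vs 4 months 1 was higher and 3 were lower, beside 3.86% and 3.81%. At 21 vs 8 months 5 were higher, beside 7.27%. With a limit of 2-fold 0 were higher at 13 vs 8, 21 vs 13 and 21 vs 8 months. With a filter at the 75th percentile 0 were higher at 13 vs 8 months, since Col5a2 lay below it. With each gene's probe sets averaged, those below the filter included, the member median, 8 vs 4 months, was -0.0433 in place of -0.22. Col5a2, at -0.36 with its readable probe set, then fell below the filter and was left out. The dim probe sets of Col3a1, Col5a1 and Col14a1 entered with 0.23, 0.25 and 0.28. Those of Col1a2 entered with 0.16 and -0.02. The part of each in the shift was not tested. The 21-month pool set against the average of the younger 3, an alternative added after seeing the data, differed by 0.46 for Col3a1, 0.38 for Col1a2, 0.64 and 0.28 for Col4a1, 0.04 for Col4a2 and -0.14 for Col5a1 with 1434479_at.

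Of 840 counts for the related and marker lists 32 moved, that is by over 1.5 times or to or from none. Averaging probe sets that all passed the filter ended the calls of P4ha1 and Tgfbi at 21 vs 4 months and of Mmp14 at 21 vs 8 months. For Fkbp14, Mrc2, Cd44 at 21 vs 13 months, Lair1, Acta2 and Gfap the average takes in dim probe sets, and the loss of the call there says little. The averages of Mrc2, Lair1, Acta2 and Gfap lay below the filter, so these genes were left out and not held against the limit. No paired analysis was possible because each age has 1 array, so there was no replicate to leave out. Dim probe sets, both of Col1a1 included, have no readable difference.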
